A study of Homo sapiens with 16 samples.

Results

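Mitochondria carry a ribosome of their own, the mitoribosome, which translates the small set of messenger RNAs made from mitochondrial DNA, all of them for subunits of the respiratory chain and ATP synthase. Its ribosomal RNA comes from the mitochondrial genome, whereas its proteins are encoded in the nucleus, made in the cytosol and imported. Many of these proteins have a homologue in bacterial ribosomes, and others were added in the mitochondrial lineage. The genes described here are the 78 protein-coding genes, of 64792 identifiers in the count table, whose symbol is MRPL (large subunit) or MRPS (small subunit) followed by a number; no measured value entered that choice. Of the 78 genes, 75 passed the filter on low counts and were tested.

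RNA was sequenced from DU145, an established human prostate cancer cell line, in 16 libraries. There were 4 libraries of cells given lactate together with I-BET762, 4 of cells given lactate, 4 of cells given I-BET762 and 4 of control cells. I-BET762 is a compound that keeps BET proteins, the readers of acetylated histones, from binding through their bromodomains. The labels give no dose and no time for either agent; they call the replicates independent without saying what was repeated, so p-values here measure the spread between these libraries. In the 4 samples given both agents the cell line field carries numbers other than DU145, and their titles, which name DU145, were followed.

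Total counts per library were 14358751 to 14641934 with both agents, 10711859 to 17173584 with lactate, 13741178 to 16847884 with I-BET762 and 13300345 to 15867437 in controls, and the lowest total was that of lactate replicate 1. The 4 epithelial markers EPCAM, KRT8, KRT18 and CDH1 summed to at least 1676.86 CPM (read counts scaled to a fixed library size) in every library. KLK3, a marker of luminal prostate cells, reached at most 0.069 CPM. Markers of other cells summed to at most 10.18 CPM for fibroblasts, 3.15 CPM for leukocytes and 1.22 CPM for endothelium. Some markers were called higher: COL1A1 of fibroblasts with lactate (0.82, log2) and with both agents (0.92), CD68 of leukocytes with lactate (1.12), and KRT8 with lactate (0.49) and with both agents (0.55). Their part in the results was not tested. HEXIM1 is used as a marker of BET inhibition, since its transcript increases in inhibited cells. It had 148.8, 89.6, 113.3 and 113.8 CPM in I-BET762 replicates 1 to 4, against 75.7, 135.1, 70.0 and 77.4 CPM in those labelled control replicates 1 to 4. The library labelled control replicate 2 stood among the I-BET762 libraries, against its label, and that labelled I-BET762 replicate 2 lay below the other I-BET762 libraries; results without both are given beside the calls they change.

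Promoters are shown first, for 4 genes of the family. Nuclear genes of the mitoribosome are known as targets of the ETS factor GABPA, of NRF1 and of YY1. The windows are 250 bases before the RefSeq start (GRCh38.p14), written 5′ to 3′ along the gene's strand. Capitals mark matches of CCGGAAG (an ETS motif) or GCATGCGC (the core of the NRF1 motif) on either strand. MRPL17 (chr11:6683341-6683590, minus strand) holds 3 NRF1 matches, 2 of which overlap on opposite strands. MRPS34 (chr16:1773135-1773384, minus strand) holds 3 ETS matches and MRPL3 (chr3:131502972-131503221, minus strand) holds 1. MRPL12 (chr17:81703117-81703366, plus strand) holds no match of either motif in this window. The windows of MRPL55 and MRPL28, which are not shown, hold none either. In the wider search of the next paragraph, MRPL28 is counted as holding CCGGAAG.
MRPL17: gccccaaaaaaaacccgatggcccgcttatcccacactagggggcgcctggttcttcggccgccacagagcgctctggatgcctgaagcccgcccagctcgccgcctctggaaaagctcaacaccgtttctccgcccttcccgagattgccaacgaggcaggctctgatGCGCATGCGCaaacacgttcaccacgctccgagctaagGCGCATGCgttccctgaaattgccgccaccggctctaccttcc
MRPS34: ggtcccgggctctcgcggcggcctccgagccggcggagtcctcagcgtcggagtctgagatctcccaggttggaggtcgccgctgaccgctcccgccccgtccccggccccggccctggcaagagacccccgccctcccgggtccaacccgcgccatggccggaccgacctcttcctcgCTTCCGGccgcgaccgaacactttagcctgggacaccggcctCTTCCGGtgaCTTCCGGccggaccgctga
MRPL3: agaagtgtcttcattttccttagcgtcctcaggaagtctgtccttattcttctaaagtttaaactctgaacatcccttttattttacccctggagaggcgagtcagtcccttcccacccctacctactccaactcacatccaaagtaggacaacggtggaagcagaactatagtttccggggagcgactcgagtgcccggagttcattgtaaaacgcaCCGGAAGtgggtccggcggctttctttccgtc
MRPL12: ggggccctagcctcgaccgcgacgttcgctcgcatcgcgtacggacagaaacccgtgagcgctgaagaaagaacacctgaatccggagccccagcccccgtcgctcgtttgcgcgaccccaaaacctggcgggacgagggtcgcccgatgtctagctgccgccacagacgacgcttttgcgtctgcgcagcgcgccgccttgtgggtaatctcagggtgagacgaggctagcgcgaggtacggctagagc

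Over the whole table, windows from 250 bases before to 50 bases after the start were known for 69 of the 78 genes, and both strands were searched. CCGGAAG was in 30 of the 69 windows (43.5%), against 12.2% of 27305 windows of all genes and 21.9% of the 10754 windows of genes tested. AAGATGGCG, a YY1 motif, was in 13 windows (18.8%), against 2.14% of all and 4.6% of tested genes. GCATGCGC was in 6 windows (8.7%, against 3.68% and 6.32%), and the E-box CACGTG bound by MYC in 9 (13%, against 8.77% and 12.3%). The GC box GGGCGG was in 42 windows (60.9%, against 48.3% of all and 77.2% of tested genes). Among the 13 genes with a window that were higher with lactate 6 held CCGGAAG, as did 23 of the 53 other tested genes with a window. A match is a description of the sequence and not a measured binding site.

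Levels differed widely among the genes of the family. Per kilobase of annotated exon, the median over the 75 tested genes was 17.3 CPM per kb, with quartiles of 10.1 and 31.6. MRPL14, at the interface of the subunits, stood highest with a mean of 107.7 CPM per kb over the 16 libraries, followed by MRPS21 with 100.1 and MRPL51 with 73.2. At the low end MRPL38 had 0.47, MRPS24 0.45 and MRPL46 0.26 CPM per kb. In the controls, MRPS21 at 94.7 ± 1.35 CPM per kb and MRPL14 at 94.2 ± 13.66 CPM per kb (SD, n = 4 each) did not differ beyond their spread, and of the 74 pairs of neighbours in the order 22 did not overlap. Exons of all annotated transcripts were counted as length, so a gene with long rarely used exons, such as MRPL42 with 16393 bases, is placed low.

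**Figure D1:**
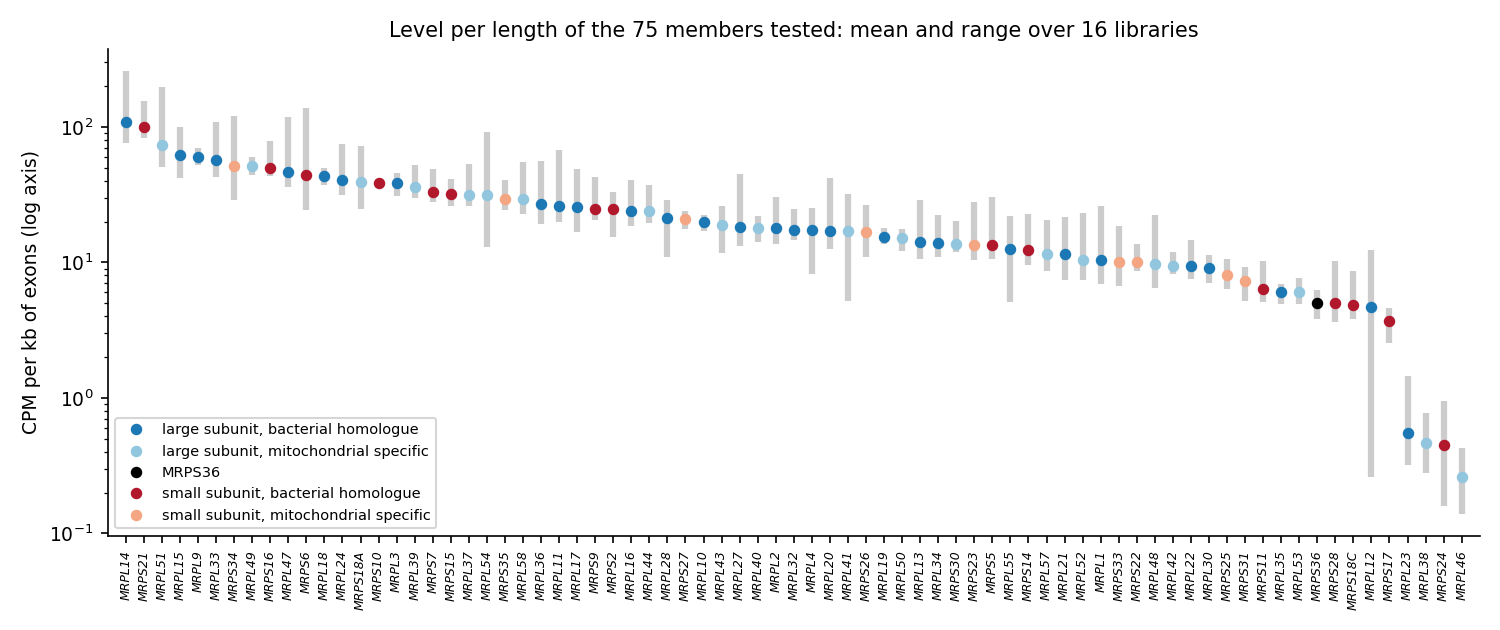
Mean level (points, CPM per kb of exon, log axis) and range over the 16 libraries (grey bars) of the 75 tested genes, ordered by mean and coloured by subunit and origin. Most genes lie between 5 and 100 CPM per kb, and MRPL12 has the longest bar among the low genes.

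MRPS12 (small subunit, ENSG00000128626, chromosome 19, 38930548 to 38933162) and MRPS18B (small subunit, ENSG00000204568, chromosome 6, 30617709 to 30626395) had no count in any library, and MRPL45 (large subunit, ENSG00000278845, chromosome 17, 38297023 to 38323218) had at most 1. Coordinates are those of GENCODE 29 on GRCh38. These 3 genes were left out of the tests, and their counts are not read as absence of the transcripts. Among the tested genes, MRPL12, MRPL23, MRPL38, MRPL46 and MRPS24 averaged under 5 CPM and 11 genes averaged over 100 CPM.

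Lactate against control was the first comparison. With lactate, 15 of the 75 genes were higher and 1 was lower, beside 23.7% of all 14690 genes called in that comparison (13.6% higher and 10.1% lower); called means an edgeR adjusted p under 0.05. Both directions together, the family's share called was near the background, and its calls were nearly all in the higher direction. In bulk RNA, more transcript per cell and more cells expressing a gene cannot be told apart. Its median log2 fold change was 0.28, against 0.03 over all genes, and 59 of the 75 fold changes were positive. The sum over the 78 genes was 4931.9 ± 1624.8 CPM with lactate and 4047.0 ± 121.3 CPM in controls (SD, n = 4 each), and the lactate libraries ranged over 7243.5, 3765.1, 3830.6 and 4888.3 CPM. Replicates 1 and 4 thus stood above the controls in the sum, and replicates 2 and 3 below the control mean. Across the family 11 genes lay wholly above and 3 wholly below the controls, beside 10.9% and 9.12% of all genes.

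Proteins of the large subunit with a bacterial homologue gave 7 of the 15 higher genes and the lower one, among 30 tested (median log2 fold change 0.39). Over all genes 13.6% were called higher and 10.1% lower. MRPL55 (ENSG00000162910, chromosome 1, 228106679 to 228109312), the mitochondrial counterpart of bacterial L31, had 41.6, 21.0, 26.7 and 31.2 CPM in lactate replicates 1 to 4, against 13.3, 15.3, 9.59 and 16.5 CPM in control replicates 1 to 4. The groups did not overlap (log2 fold change 1.14 ± 0.21 SE, adjusted p = 0.00192 in edgeR). MRPL28 (ENSG00000086504, chromosome 16, 366969 to 371289), a homologue of bacterial L28, had 76.4, 63.4, 73.5 and 77.7 CPM with lactate, against 49.3, 42.8, 33.6 and 48.3 CPM in controls, again without overlap (log2 fold change 0.74 ± 0.14 SE, adjusted p = 0.00232 in edgeR). Lactate replicate 1 did not stand apart from the other lactate libraries in this gene. MRPL17 (ENSG00000158042, chromosome 11, 6680782 to 6683401), a homologue of L17, had 110.7, 55.2, 59.4 and 77.0 CPM with lactate, against 44.1, 48.5, 38.2 and 38.9 CPM in controls (log2 fold change 0.83 ± 0.17 SE, adjusted p = 0.00356 in edgeR). All 4 lactate libraries of MRPL17 lay above the highest control.

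MRPL12 (ENSG00000262814, chromosome 17, 81703357 to 81707526) encodes the stalk protein that recruits translation factors, and is also known to bind the mitochondrial RNA polymerase. Its level was low, at 6.20, 4.40, 6.40 and 3.80 CPM with lactate and 1.46, 0.99, 0.26 and 0.71 CPM in controls, which were counts of 61, 64, 113 and 51 against 23, 13, 4 and 10. The groups did not overlap (log2 fold change 2.59 ± 0.53 SE, adjusted p = 0.00371 in edgeR). Of its exon bases, 68.2% are shared with another protein-coding gene on the same strand, ENSG00000262660, which had 0 counts in every library, so its level depends on how shared reads were assigned. MRPL4 was higher by 0.61 (log2, ± 0.21 SE; edgeR, adjusted p = 0.0421) and MRPL21 by 0.65 (log2, ± 0.20 SE; edgeR, adjusted p = 0.0286), both with overlap between the groups. MRPL36, a homologue of the smallest bacterial large-subunit protein, had 77.4, 33.7, 34.8 and 46.4 CPM with lactate, against 31.1, 32.5, 26.7 and 32.4 CPM in controls (log2 fold change 0.64 ± 0.20 SE, adjusted p = 0.032 in edgeR). MRPL3 (ENSG00000114686, chromosome 3, 131462212 to 131502983), a core protein near the catalytic centre, was the lower gene, with 83.6, 96.7, 93.6 and 109.6 CPM in lactate libraries, against 124.5, 115.5, 121.9 and 111.4 CPM in controls and no overlap (log2 fold change -0.30 ± 0.10 SE, adjusted p = 0.0392 in edgeR). MRPL34 did not pass the test (log2 fold change 0.28 ± 0.18 SE, adjusted p = 0.238 in edgeR).

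Among 20 tested large-subunit proteins listed as specific to the mitoribosome, 4 were higher and 0 lower (median log2 fold change 0.27). At an unadjusted p under 0.05 in edgeR there were 6. Over all genes 13.6% were called higher and 10.1% lower. MRPL41 (ENSG00000182154, chromosome 9, 137551199 to 137552555) had 40.6, 14.4, 19.0 and 23.4 CPM with lactate, against 10.5, 14.2, 6.57 and 14.3 CPM in controls (log2 fold change 1.09 ± 0.30 SE, adjusted p = 0.0162 in edgeR). Its lowest lactate library lay above its highest control by less than the spread of either group, and its direction turned with GC and length offsets (log2 fold change -0.28). MRPL54 had 92.3, 23.5, 25.6 and 38.0 CPM with lactate and 20.2, 23.3, 13.0 and 22.1 CPM in controls (log2 fold change 1.18 ± 0.32 SE, adjusted p = 0.0154 in edgeR), and MRPL43 had 92.4, 56.8, 66.1 and 79.2 CPM with lactate, against 50.8, 51.7, 41.6 and 60.3 CPM in controls (log2 fold change 0.53 ± 0.14 SE, adjusted p = 0.0156 in edgeR). MRPL43 overlapped the controls, and in MRPL54 lactate replicate 1 stood far above the others. MRPS18A, which despite its symbol sits in the large subunit, was higher by 0.60 (log2, ± 0.19 SE; edgeR, adjusted p = 0.0289), and 47.0% of its exon bases are also exons of RSPH9 on the other strand. MRPS30, another large-subunit protein with a small-subunit symbol, did not pass (log2 fold change 0.10 ± 0.13 SE, adjusted p = 0.584 in edgeR). MRPL58, a peptidyl-tRNA hydrolase that frees stalled mitoribosomes, stood at 0.45 (log2, ± 0.19 SE; edgeR, adjusted p = 0.0905), and MRPL44, an RNase III-like protein of the large subunit, at 0.09 (log2, ± 0.16 SE; edgeR, adjusted p = 0.707).

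In the small subunit, 2 of 15 tested proteins with a bacterial homologue were higher (MRPS28 and MRPS24, median log2 fold change 0.26). Of 9 listed as specific to the mitoribosome, 2 were higher (MRPS34 and MRPS26, median 0.11). None of either list was lower in edgeR's test. Over all genes 13.6% were called higher and 10.1% lower. MRPS34 (ENSG00000074071, chromosome 16, 1771890 to 1773155), which is needed for a stable small subunit, had 132.6, 46.5, 50.2 and 69.1 CPM with lactate, against 43.2, 40.7, 31.5 and 44.0 CPM in controls (log2 fold change 0.90 ± 0.25 SE, adjusted p = 0.0187 in edgeR). Lactate replicate 1 held by far the highest value of MRPS34, and replicates 2 and 3 lay just above the controls. MRPS28, with 35.8% of its exon bases shared on the same strand with the protein-coding gene ENSG00000276418, was higher by 0.68 (log2, ± 0.20 SE; edgeR, adjusted p = 0.0228) and MRPS24 by 1.28 (log2, ± 0.40 SE; edgeR, adjusted p = 0.0307), at low levels of 11.8 ± 4.70 and 1.73 ± 0.62 CPM with lactate, against 7.31 ± 0.77 and 0.69 ± 0.18 CPM in controls (SD, n = 4 each). MRPS26 was near the threshold (log2 fold change 0.54 ± 0.19 SE, adjusted p = 0.0493 in edgeR). MRPS16, a conserved small-subunit protein, stood at 0.21 (log2, ± 0.14 SE; edgeR, adjusted p = 0.25), MRPS22 at 0.11 (log2, ± 0.13 SE; edgeR, adjusted p = 0.54) and MRPS18C at 0.27 (log2, ± 0.19 SE; edgeR, adjusted p = 0.287). MRPS36, since reassigned from the mitoribosome to the oxoglutarate dehydrogenase complex, had 5.80, 7.84, 6.79 and 8.26 CPM with lactate, against 6.93, 9.63, 7.88 and 7.66 CPM in controls (log2 fold change -0.16 ± 0.15 SE, adjusted p = 0.455 in edgeR).

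**Figure D2:**
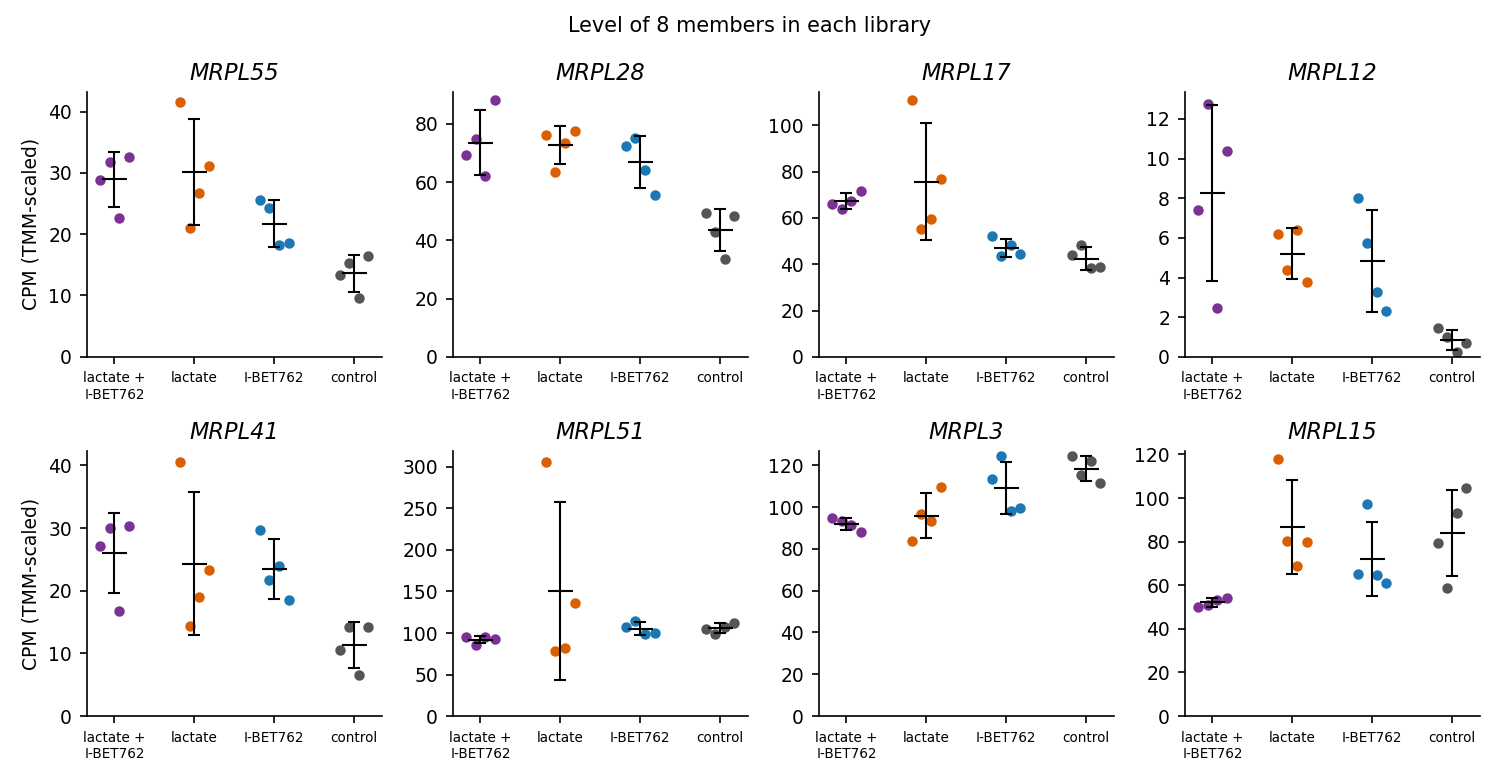
CPM of 8 genes in each library (points), with mean and SD (bars, n = 4 libraries a group), in panels with axes that start at 0; libraries run from replicate 1 to 4 within a group. MRPL55, MRPL28, MRPL17, MRPL12 and MRPL41 are higher than control in both lactate groups (MRPL41 turns negative with GC offsets), MRPL3 is lower, MRPL15 is low with both agents, and lactate replicate 1 of MRPL51 stands at 305.7 CPM.

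Lactate replicate 1 carried much of this pattern. It lay above the highest control in 64 of the 75 genes and was the highest lactate library in 60; replicate 4 lay above the highest control in 55. Replicates 2 and 3 lay above the highest control in 15 and 18 genes, and below the lowest in 42 and 31. Averaged over the 75 genes on the log2 scale (pseudocount 0.5 CPM), lactate replicates 1 to 4 stood 0.79, -0.06, -0.01 and 0.34 from the control mean. With both agents the libraries stood at 0.12, 0.11, 0.04 and 0.16, with I-BET762 at 0.15, 0.12, 0.03 and 0.02, and the controls at 0.01, 0.04, -0.11 and 0.06. The same 2 lactate libraries stood high for 73 cytosolic ribosomal protein genes (1.48, 0.00, 0.04 and 0.57 in lactate replicates 1 to 4) and for 74 nuclear genes of the respiratory chain (1.19, -0.14, -0.01 and 0.46).

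**Figure D3:**
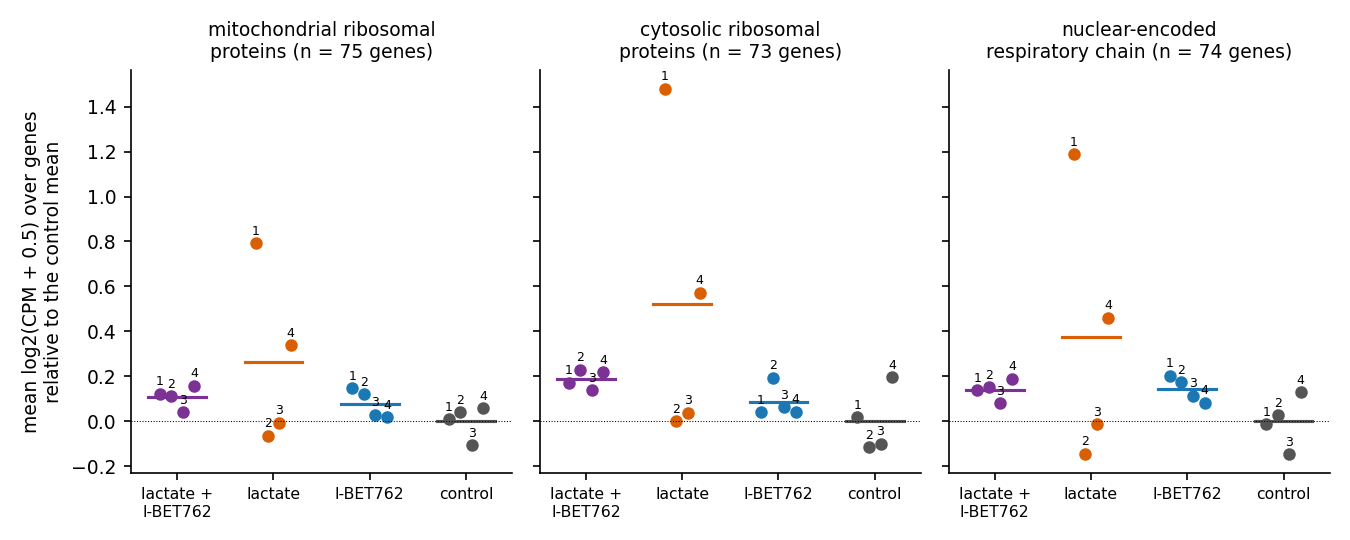
Mean log2(CPM + 0.5) of 3 gene lists in each library relative to the mean of the controls (points, numbered by replicate; bars are group means, n = 4). Lactate replicates 1 and 4 lie above the other libraries in the 3 lists, at 0.79 and 0.34 for mitochondrial ribosomal protein genes, while lactate replicates 2 and 3 lie near the controls.

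The 4 genes in which lactate replicate 1 was farthest from the median of the other lactate libraries were MRPL51, MRPL1, MRPL54 and MRPS6, with log2 gaps of 1.89, 1.86, 1.83 and 1.82. MRPL51, a large-subunit protein, had 305.7, 78.3, 82.0 and 136.7 CPM with lactate, against 104.6, 99.1, 107.7 and 112.3 CPM in controls (log2 fold change 0.51 ± 0.29 SE, adjusted p = 0.21 in edgeR). Lactate replicates 2 and 3 of MRPL51 were below its lowest control and replicates 1 and 4 above its highest. MRPS6 had 593.5, 232.8, 116.5 and 167.2 CPM with lactate and 199.9, 143.0, 128.3 and 122.6 CPM in controls (log2 fold change 0.90 ± 0.39 SE, adjusted p = 0.0996 in edgeR), and MRPL1 had 50.7, 13.6, 13.4 and 26.1 CPM with lactate, against 18.4, 22.3, 15.8 and 18.3 CPM in controls (log2 fold change 0.46 ± 0.31 SE, adjusted p = 0.28 in edgeR). MRPL51, MRPS6 and MRPL1 did not pass the test, while MRPL54 did.

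Without lactate replicate 1, 9 genes were higher and 4 lower, beside 2180 and 1586 of all 14841 genes tested. Of the 16 calls, 9 were kept. The kept genes were MRPL12, MRPL17, MRPL28, MRPL41, MRPL43, MRPL54, MRPL55, MRPS24 and MRPS34, and the lower genes were MRPL30, MRPL35, MRPL42 and MRPL50. The median log2 fold change was then 0.01, with 39 of 75 positive, and the fold change was smaller than with all libraries in 68 genes. The 15 higher genes all stayed positive. MRPL54 stood at 0.56 (adjusted p = 0.0283) and MRPS34 at 0.47 (adjusted p = 0.0412) without that library, while MRPL28 stood at 0.71 and MRPL12 at 2.50. Lactate replicates 1 and 4 were also both left out, chosen after seeing the data because they had the lowest correlation with exon length. Without them 4 genes were higher (MRPL12, MRPL17, MRPL28 and MRPL55) and 13 lower, with a median of -0.13. Over all 15088 genes tested there, 1751 were called higher and 1189 lower. Other single libraries also moved the count: 8 genes were called without control replicate 1, 5 without control replicate 3, 28 without lactate replicate 2 and 9 without lactate replicate 4. Over all genes these settings called 1540 higher and 962 lower, 1150 and 689, 2660 and 2290, and 1378 and 724, in that order. MRPL41, MRPL43, MRPL54 and MRPS34 lost their calls without control replicate 3 (adjusted p = 0.0583, 0.0609, 0.0576 and 0.0655). The call of MRPL36 was lost without control replicate 1, 2 or 3 or lactate replicate 1 or 4 (adjusted p = 0.0521 to 0.0951), and that of MRPS18A without control replicate 1 or 3 or lactate replicate 1 or 4 (adjusted p = 0.0615 to 0.0995). MRPL3 was no longer called without any 1 control, without lactate replicate 1 or 3, or without replicate 2 of both agents (adjusted p = 0.0509 to 0.0936). With replicate 2 of control and of I-BET762 both left out, 10 of the 16 calls were kept and none was added. Over all 14897 genes tested there, 1586 were called higher and 993 lower. The calls of MRPL3, MRPL36 and MRPS18A were lost there (adjusted p = 0.0521, 0.0643 and 0.0508 in edgeR), as were those of MRPL4, MRPS24 and MRPS26.

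**Figure D4:**
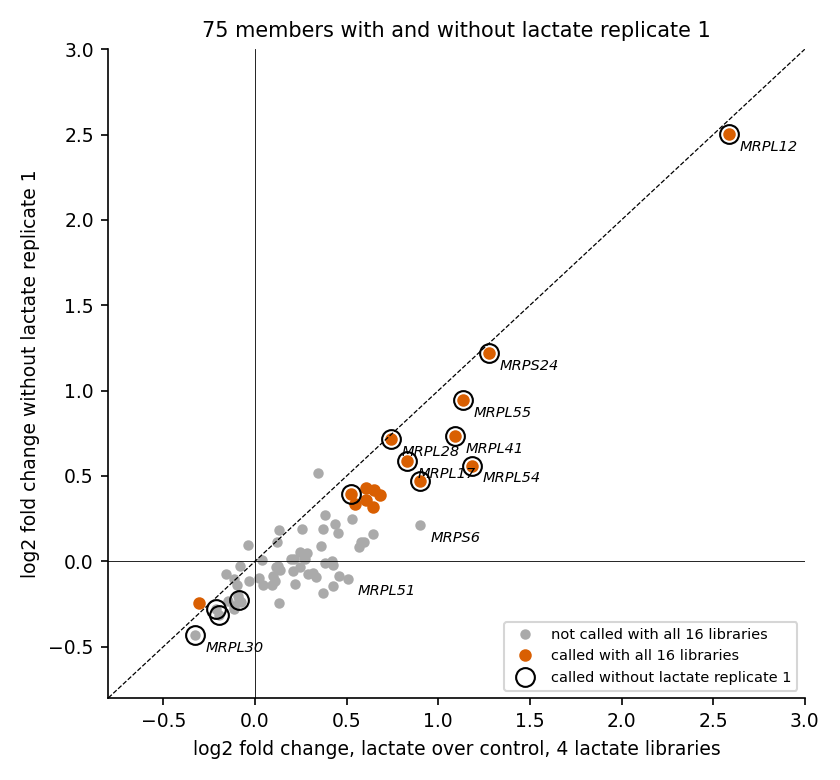
Log2 fold change of the 75 genes for lactate over control with 4 lactate libraries (horizontal) and without lactate replicate 1 (vertical); the dashed line marks equal values, colour marks calls with all 16 libraries and rings mark calls without that library. Most points lie under the line, and 9 coloured points carry a ring.

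Base composition and transcript length moved with the groups. Within each library, the correlation across genes between a gene's deviation from its mean and its GC content (Spearman's rho) averaged 0.29 ± 0.17 with both agents, 0.19 ± 0.16 with lactate, 0.03 ± 0.17 with I-BET762 and -0.41 ± 0.11 in controls (SD, n = 4 each). The correlation with exon length was -0.40 in lactate replicate 1 and -0.41 in replicate 4, against 0.24 and 0.10 in replicates 2 and 3, and 0.03 to 0.27 in controls. The 75 genes have a median exon length of 2549 bases, against 4694 over all tested genes, and a median GC content of 49.2%, against 49.0%. Across the 75 genes the log2 fold change for lactate went with GC content at a rho of 0.56 and with length at -0.26, against 0.44 and -0.34 across all tested genes; genes of 1 library share its composition and are not replicates. The corresponding values for GC content were 0.60 for both agents against control and 0.54 for I-BET762 against control (all genes 0.52 and 0.54).

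With offsets for GC content and exon length in the model, 4 genes were higher with lactate (MRPL12, MRPL17, MRPL55 and MRPS28) and 2 lower (MRPL30 and MRPL40), with a median log2 fold change of 0.14. Over all 14690 genes, 1057 were called higher and 1095 lower with these offsets. MRPL17 then stood at 0.67 (adjusted p = 0.00469), MRPL55 at 0.56 (adjusted p = 0.016), MRPL12 at 1.76 (adjusted p = 0.0164) and MRPS28 at 0.55 (adjusted p = 0.0182). MRPL28, with a GC content of 62.5%, stood at 0.16 (adjusted p = 0.181), and MRPL41, with the highest GC content of the family (71.9%), at -0.28 (adjusted p = 0.326). Since the trend on GC content itself separated control from lactate libraries, a change in GC-rich transcripts and a shift of the libraries' composition cannot be told apart. MRPL55 and MRPL12 were called under every alternative in which they were tested, 29 and 28 in number, and MRPL17 under 28 of 29.

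**Figure D5:**
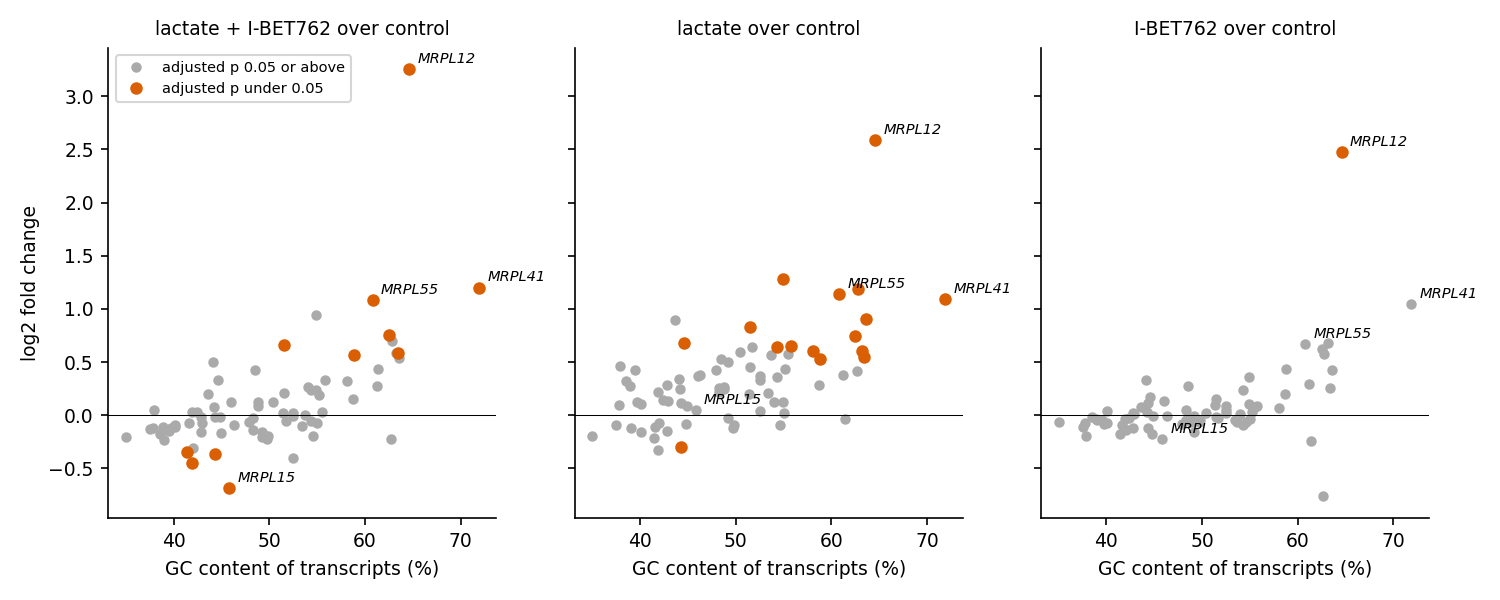
Log2 fold change of the 75 genes against the GC content of their transcripts for lactate with I-BET762, lactate, and I-BET762, each over control; colour marks an adjusted p under 0.05. Fold changes are larger toward high GC content in the 3 panels, with MRPL12 and MRPL41 at the upper right.

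I-BET762 against control gave 1 higher gene and 0 lower ones in edgeR, beside 0.442% of all genes called (7 of the 75 at an unadjusted p under 0.05). The median log2 fold change was -0.01, against -0.04 over all genes. MRPL12 was that gene, with 8.02, 5.72, 3.27 and 2.30 CPM with I-BET762, against 1.46, 0.99, 0.26 and 0.71 CPM in controls, without overlap (log2 fold change 2.47 ± 0.53 SE, adjusted p = 0.0499 in edgeR). The call was at the edge of the threshold: it held under 10 of 28 alternatives. It was lost without control replicate 1, 2 or 3, without I-BET762 replicate 1, 2 or 3, without lactate replicate 2, 3 or 4 and without replicate 1, 2 or 4 of both agents (adjusted p = 0.0536 to 0.226), and stood at an adjusted p of 0.09 without the libraries labelled I-BET762 replicate 2 and control replicate 2. MRPL28 had 72.6, 75.3, 64.2 and 55.8 CPM with I-BET762, against 49.3, 42.8, 33.6 and 48.3 CPM in controls; its groups did not overlap but it missed the threshold (log2 fold change 0.62 ± 0.14 SE, adjusted p = 0.0543 in edgeR). Across the family 9 genes lay wholly above and 3 wholly below the controls, beside 7.73% and 3.04% of all genes. The number of genes called was 0 to 4 when 1 library was left out. It was 4 without lactate replicate 1, and 2 without control replicate 4, I-BET762 replicate 4 or replicate 3 of both agents. It was 0 without any other library. Over all genes, 506 were called higher and 10 lower without lactate replicate 1. Without control replicate 4, I-BET762 replicate 4 or replicate 3 of both agents, 277, 105 and 220 were called higher and 0 lower.

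Lactate with I-BET762 against control gave 7 higher and 4 lower genes, beside 20.7% of all genes called (13.0% higher and 7.72% lower). The median log2 fold change was -0.01, the same as over all genes. The sum over the family was 4138.1 ± 92.4 CPM with both agents and 4047.0 ± 121.3 CPM in controls. This comparison and those of each agent alone share the 4 control libraries. The 7 higher genes were MRPL12, MRPL28, MRPL55, MRPL41, MRPL43, MRPL17 and MRPS26. MRPL12 had 7.43, 12.7, 2.48 and 10.4 CPM with both agents, against 1.46, 0.99, 0.26 and 0.71 CPM in controls (log2 fold change 3.25 ± 0.52 SE, adjusted p = 0.000638 in edgeR). The counts behind it were 108, 184, 36 and 152, against 23, 13, 4 and 10.

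MRPL28 had 69.4, 74.7, 62.2 and 88.3 CPM with both agents, against 49.3, 42.8, 33.6 and 48.3 CPM in controls (log2 fold change 0.76 ± 0.14 SE, adjusted p = 0.00162 in edgeR). MRPL55 had 28.9, 31.7, 22.6 and 32.6 CPM with both agents, against 13.3, 15.3, 9.59 and 16.5 CPM in controls (log2 fold change 1.08 ± 0.21 SE, adjusted p = 0.00203 in edgeR), and MRPL17 66.1, 63.9, 67.2 and 71.8 CPM, against 44.1, 48.5, 38.2 and 38.9 CPM (log2 fold change 0.67 ± 0.17 SE, adjusted p = 0.011 in edgeR). In these 4 genes no library of the treated cells overlapped the controls. MRPL43 was higher by 0.56 (log2, ± 0.14 SE; edgeR, adjusted p = 0.0108). MRPL41 was higher by 1.20 (log2, ± 0.30 SE; edgeR, adjusted p = 0.00965), and turned to -0.30 (adjusted p = 0.342) with GC content and length offsets. MRPL12, MRPL17 and MRPL55 were called higher with these offsets, and MRPL28, MRPL43 and MRPS26 were not called.

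The lower genes with both agents were all large-subunit proteins with a bacterial homologue. MRPL15 (ENSG00000137547, chromosome 8, 54135210 to 54147901) had 49.9, 51.1, 53.4 and 54.1 CPM with both agents, against 79.3, 58.9, 93.2 and 104.6 CPM in controls (log2 fold change -0.69 ± 0.19 SE, adjusted p = 0.0168 in edgeR). Its libraries with both agents lay close together, whereas the controls were spread. MRPL30 had 20.5, 21.0, 24.0 and 23.3 CPM with both agents, against 28.5, 29.5, 32.8 and 30.5 CPM in controls (log2 fold change -0.45 ± 0.12 SE, adjusted p = 0.0137 in edgeR). MRPL3 had 94.7, 93.5, 91.6 and 87.9 CPM, against 124.5, 115.5, 121.9 and 111.4 CPM in controls (log2 fold change -0.36 ± 0.10 SE, adjusted p = 0.018 in edgeR). MRPL35 had 20.8, 18.8, 22.2 and 20.8 CPM, against 25.9, 26.0, 26.6 and 26.6 CPM in controls (log2 fold change -0.34 ± 0.10 SE, adjusted p = 0.0249 in edgeR). In each of these 4 the groups did not overlap. With GC and length offsets MRPL15 and MRPL30 were called lower, and MRPL3 and MRPL35 were not called. The call of MRPL15 was lost without control replicate 3 (adjusted p = 0.0557) or control replicate 4 (adjusted p = 0.0638), that of MRPL35 without control replicate 3 or 4 or replicate 1, 2 or 4 of both agents (adjusted p = 0.0513 to 0.0851), and that of MRPL3 without control replicate 1, control replicate 3 or replicate 4 of both agents (adjusted p = 0.0541, 0.0546 and 0.0606). In all, 17 genes lay wholly above and 9 wholly below the controls, beside 16.5% and 14.8% of all genes. Leaving out control replicate 3 gave 7 calls and leaving out lactate replicate 1, which enters through the shared spread, gave 19. Over all genes these gave 1166 higher and 538 lower, and 2596 higher and 2043 lower.

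Lactate with I-BET762 against I-BET762 alone asked what lactate did in inhibited cells. No gene of the family was called in edgeR, beside 4.9% of all genes (3.34% higher and 1.57% lower). In edgeR 6 had an unadjusted p under 0.05, and DESeq2 and limma-voom also called 0. Over all genes DESeq2 called 784 higher and 466 lower, and limma-voom 495 and 241. The median log2 fold change was -0.02 (all genes 0.01). MRPL17 had 66.1, 63.9, 67.2 and 71.8 CPM with both agents, against 52.2, 43.6, 48.3 and 44.3 CPM with I-BET762, without overlap (log2 fold change 0.51 ± 0.17 SE, adjusted p = 0.0893 in edgeR). MRPL49 had 185.7, 185.8, 167.4 and 162.8 CPM with both agents, against 157.0, 146.1, 144.4 and 141.2 CPM with I-BET762, also without overlap (log2 fold change 0.25 ± 0.09 SE, adjusted p = 0.131 in edgeR). Both genes were called when lactate replicate 1 was left out of the model. Of the 75 genes, 8 lay wholly above and 9 wholly below I-BET762 alone, beside 11.2% and 11.3% of all genes.

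Lactate with I-BET762 against lactate alone gave 0 calls among the 75 genes in edgeR, beside 0.0% of all genes. In edgeR 13 had an unadjusted p under 0.05, while limma-voom called 0 and DESeq2 called 1 lower. Over all genes limma-voom called 0, and DESeq2 19 higher and 71 lower. The median log2 fold change was -0.19, against 0.00 over all genes, and 63 of the 75 were negative. The median without lactate replicate 1 was 0.01, so the direction rested on that library. MRPL15 had 49.9, 51.1, 53.4 and 54.1 CPM with both agents, against 118.0, 80.3, 68.8 and 79.9 CPM with lactate, with no overlap, and did not pass the test (log2 fold change -0.73 ± 0.19 SE, adjusted p = 0.222 in edgeR); it was called with replicate 2 of control and of I-BET762 both left out (adjusted p = 0.0413). Of the family, 0 genes lay wholly above and 1, MRPL15, wholly below lactate alone, beside 3.82% and 3.78% of all genes. MRPL52 had 24.7, 23.8, 23.8 and 27.7 CPM with both agents, against 74.0, 23.8, 28.8 and 40.7 CPM with lactate, where replicate 1 was far above the others (log2 fold change -0.73 ± 0.25 SE, adjusted p = 0.265 in edgeR). The interaction of the agents, which tests whether the inhibitor changes the lactate effect, called 0 of 75 in edgeR, DESeq2 and limma-voom, beside 0.0% of all genes (10 at an unadjusted p under 0.05). Its median was -0.28 with all libraries and 0.00 without lactate replicate 1. The interaction was -0.60 (log2, ± 0.20 SE; edgeR, adjusted p = 0.7) for MRPL28 and -1.80 (log2, ± 0.69 SE; edgeR, adjusted p = 0.7) for MRPL12.

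Partners of the mitoribosome were described from lists of known function. Of 5 mitoribosomal proteins whose symbols do not begin with MRP, 2 were higher and 1 lower with lactate (median log2 fold change 0.64). Of all genes 13.6% were called higher and 10.1% lower in that comparison. AURKAIP1, a small-subunit protein, had 109.4, 36.7, 45.7 and 65.4 CPM with lactate, against 31.0, 33.0, 21.5 and 36.2 CPM in controls (log2 fold change 1.07 ± 0.26 SE, adjusted p = 0.00896 in edgeR), and GADD45GIP1, of the large subunit, 112.3, 41.1, 43.0 and 59.6 CPM, against 30.4, 33.8, 20.5 and 38.8 CPM (log2 fold change 1.05 ± 0.26 SE, adjusted p = 0.00969 in edgeR). Both were highest in lactate replicate 1, were still called without it, and were not called with GC and length offsets. PTCD3, an RNA-binding small-subunit protein, had 69.2, 69.4, 71.8 and 66.2 CPM with lactate, against 89.1, 92.7, 88.1 and 82.8 CPM in controls, without overlap (log2 fold change -0.35 ± 0.08 SE, adjusted p = 0.00872 in edgeR). With I-BET762, and with both agents, 0 of the 5 were called against control in edgeR, beside 0.442% and 20.7% of all genes. At an unadjusted p under 0.05 in edgeR there were 2 and 3, while DESeq2 called 0 and 1, and limma-voom 0 and 0. Over all genes DESeq2 called 515 higher and 13 lower with I-BET762, and 2120 and 1452 with both agents. For limma-voom these were 0 and 0, and 1935 and 1088. AURKAIP1 and GADD45GIP1 were called higher with both agents, and DAP3 lower, when lactate replicate 1 was left out.

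Assembly factors of the mitoribosome gave 2 higher and 2 lower of 25 with lactate (median log2 fold change -0.03), and 3 higher and 2 lower with both agents against control, beside 23.7% and 20.7% of all genes called. The shares of assembly factors called were at or below those of all genes. TFB1M, which methylates the small-subunit ribosomal RNA, had 14.2, 14.6, 16.5 and 16.9 CPM with both agents, 22.4, 14.2, 14.6 and 19.5 CPM with lactate, 9.40, 11.3, 10.4 and 9.88 CPM with I-BET762 and 10.8, 11.5, 12.1 and 11.6 CPM in controls. It was higher with lactate (log2 fold change 0.61 ± 0.15 SE, adjusted p = 0.00804 in edgeR), with both agents against control (log2 fold change 0.44 ± 0.14 SE, adjusted p = 0.0418 in edgeR) and with both agents against I-BET762 (log2 fold change 0.60 ± 0.15 SE, adjusted p = 0.0246 in edgeR). TFB1M was called in these 3 comparisons also without lactate replicate 1 and with GC and length offsets; with replicate 2 of control and of I-BET762 both left out it was not called with both agents against control. FASTKD2, needed for the large-subunit ribosomal RNA, was lower with lactate (log2 fold change -0.33 ± 0.10 SE, adjusted p = 0.0248 in edgeR) and with both agents (log2 fold change -0.34 ± 0.10 SE, adjusted p = 0.0234 in edgeR), and the pseudouridine synthase RPUSD3 was higher with lactate (log2 fold change 0.45 ± 0.14 SE, adjusted p = 0.025 in edgeR). Neither was called with the offsets.

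Translation factors gave 0 higher and 4 lower of 16 with lactate (median log2 fold change -0.14), and 0 higher and 3 lower with both agents against control, beside 10.1% and 7.72% of all genes called lower and 23.7% and 20.7% called in either direction. In both directions together the shares were near those of all genes. LRPPRC, which stabilises mitochondrial messenger RNAs, had 445.4, 478.9, 454.1 and 412.7 CPM with lactate, against 598.2, 637.6, 633.0 and 574.6 CPM in controls (log2 fold change -0.45 ± 0.09 SE, adjusted p = 0.00297 in edgeR). All 4 lactate libraries were below the controls. The elongation factor GFM1 had 60.4, 89.8, 89.5 and 82.0 CPM with lactate, against 112.1, 130.6, 105.9 and 101.2 CPM in controls (log2 fold change -0.48 ± 0.12 SE, adjusted p = 0.0129 in edgeR), and GUF1 stood at -0.43 (log2, ± 0.14 SE; edgeR, adjusted p = 0.0373). With both agents the initiation factor MTIF2 was lower (log2 fold change -0.45 ± 0.13 SE, adjusted p = 0.0217 in edgeR), as were LRPPRC (log2 fold change -0.35 ± 0.09 SE, adjusted p = 0.0108 in edgeR) and the release factor MTRF1 (log2 fold change -0.43 ± 0.13 SE, adjusted p = 0.0282 in edgeR). With GC and length offsets 1 factor, TUFM, was called lower with lactate, and 2 (MTIF2 and TUFM) with both agents. Of all 14690 genes, 1095 and 938 were called lower with these offsets. With replicate 2 of control and of I-BET762 both left out, GUF1 was not called with lactate, nor MTIF2 with both agents.

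Genes of mitochondrial transcription and DNA replication gave 1 higher and 1 lower of 10 with lactate, beside 13.6% and 10.1% of all genes. The RNA polymerase POLRMT had 70.2, 61.0, 65.7 and 60.2 CPM with lactate, against 38.5, 49.2, 28.0 and 44.3 CPM in controls (log2 fold change 0.69 ± 0.17 SE, adjusted p = 0.0102 in edgeR). The helicase TWNK had 64.9, 56.8, 49.7 and 49.4 CPM with lactate, against 78.4, 67.4, 74.4 and 69.1 CPM in controls (log2 fold change -0.39 ± 0.10 SE, adjusted p = 0.0135 in edgeR), and was lower with both agents against control (log2 fold change -0.55 ± 0.10 SE, adjusted p = 0.0017 in edgeR) and against I-BET762 (log2 fold change -0.42 ± 0.10 SE, adjusted p = 0.0247 in edgeR). TWNK was called lower in these 3 comparisons also with GC and length offsets, whereas POLRMT was not called higher with them; with replicate 2 of control and of I-BET762 both left out TWNK was not called against I-BET762. Among 8 tested regulators of nuclear mitochondrial genes 0 were higher and 1 lower with lactate, beside the same shares of all genes. That gene was GABPA, the ETS factor named with the promoters, with 52.7, 69.6, 63.6 and 53.4 CPM with lactate, against 80.8, 73.3, 79.5 and 73.1 CPM in controls (log2 fold change -0.36 ± 0.10 SE, adjusted p = 0.019 in edgeR). GABPA was not called with the offsets.

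The 13 messenger RNAs that the mitoribosome translates gave 0 higher and 2 lower with lactate (median log2 fold change -0.32), beside 13.6% and 10.1% of all genes. With both agents against control they gave 2 higher and 0 lower, beside 13.0% and 7.72% of all genes. Against I-BET762 they likewise gave 2 higher and 0 lower, beside 3.34% and 1.57% of all genes. MT-ND1 had 447.3, 1269.8, 1258.5 and 873.9 CPM with lactate, against 1474.3, 1626.0, 1734.7 and 1331.8 CPM in controls (log2 fold change -0.68 ± 0.23 SE, adjusted p = 0.0422 in edgeR), and MT-ND2 stood at -0.63 (log2, ± 0.19 SE; edgeR, adjusted p = 0.0234). Both encode subunits of complex I, and neither was called with replicate 2 of control and of I-BET762 both left out. MT-CO3, a subunit of complex IV, had 3850.6, 3940.2, 3213.6 and 3616.6 CPM with both agents, against 2661.6, 2788.0, 2662.1 and 2421.0 CPM in controls (log2 fold change 0.47 ± 0.11 SE, adjusted p = 0.00581 in edgeR). MT-CO2, of the same complex, had 4011.8, 3924.8, 2777.0 and 3042.8 CPM with both agents, against 2416.6, 2355.0, 2375.5 and 2080.7 CPM in controls (log2 fold change 0.58 ± 0.14 SE, adjusted p = 0.00998 in edgeR). Both complex IV genes were higher against I-BET762 as well (0.50 and 0.61; edgeR adjusted p = 0.0129 and 0.0208), and MT-CO2 was not called there with replicate 2 of control and of I-BET762 both left out. As a mean over the 13 on the log2 scale, lactate replicates 1 to 4 stood at -0.52, 0.00, -0.20 and -0.53 from the control mean, so replicates 1 and 4, the libraries high for the nuclear genes, were the low ones. The part of transcript length and base composition in these means per library was not tested. Calls of the 13 with GC and length offsets are not reported here.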

How the data were processed

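Per the labels' protocols, directional libraries of polyA RNA, from 800 ng of RNA, were read single-end for 75 bases. The authors deposited raw counts per Ensembl identifier in 1 table of 16 libraries. The submitters' processing notes name STAR 2.6.1c, DESeq, GRCh38.p12 and hg38; how reads were counted per gene, with which annotation and with which strand option, is not given in the sources used here. Symbols came from a list of gene names by Ensembl identifier, and from GENCODE release 29 where that list had none. In all, 58735 of 64792 identifiers had a symbol. Gene type, position, exon length and GC content came from GENCODE release 29. Genes were kept by edgeR's filterByExpr (minimum count 10, total 15), leaving 14690. A single edgeR 4.0.16 quasi-likelihood model over the 4 groups (TMM scaling, 12 residual degrees of freedom, common biological coefficient of variation 0.183) gave every contrast, two-sided, with Benjamini-Hochberg adjustment over all tested genes. The model was also run on simulated counts with known fold changes. Those counts held no shift in GC content or length between groups and no deviating library, so they do not bear on these. Alternatives used DESeq2 1.42.0, limma 3.58.1, other scalings and filters, offsets for GC content and exon length (splines with 5 degrees of freedom), a replicate block and left-out libraries. CPM were computed from TMM-scaled totals. Promoters came from RefSeq (GRCh38.p14).

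Genes and lists were chosen with earlier results of these data known. Named genes were a set chosen by function whatever their result, the 6 smallest p in each direction among those called (2 where fewer passed), the 3 highest and 3 lowest levels, those filtered out, the 4 widest gaps of lactate replicate 1, and up to 3 per partner list. MRPL4, MRPL21, MRPL23, MRPL40, MRPL42, MRPL50, MRPL53, MRPS24, MRPS26, MRPS28, DAP3 and TUFM were named after their values were seen. Some marker genes are not reported here.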

Additional observations from a re-analysis of the deposited data

Results flagged for a closer look

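Of 120 groups of 4 libraries examined, 1 held a library far from the others, where chance gives about 1 in 20. MRPL15 stood at 97.1 CPM in I-BET762 replicate 2, while the other I-BET762 libraries lay at 60.9 to 65.2 CPM. The gap was 0.88 of the group's range, past the 95% critical value of Dixon's test. HEXIM1 in that library lay below the other I-BET762 libraries; whether this bears on MRPL15 was not tested. MRPL15 with both agents against lactate alone had an adjusted p of 0.0413 in edgeR without the libraries labelled I-BET762 replicate 2 and control replicate 2.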

How the results depend on the processing

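Over the family, the number of genes called (edgeR, adjusted p under 0.05) and the median log2 fold change were recomputed under each alternative. For lactate against control (16 genes), 4 were called with a GC correction, 6 with GC and length and 7 when the replicate block was added to these. There were 3 when fitted on the groups compared only and 10 with replicate 2 of control and of I-BET762 both left out. Over all genes these settings called 970 higher and 928 lower, 1057 and 1095, 1259 and 1465, 719 and 170, and 1586 and 993, in that order. The median was -0.132 without lactate replicates 1 and 4. For I-BET762 (1 gene), total counts, limma-voom, the GC corrections and the removal of replicate 2 of control and of I-BET762 gave 0. The replicate block gave 2, DESeq2 3, the groups alone 4, no filter 5 and removal of lactate replicates 1 and 4 gave 8. Over all genes these last settings called 205 higher and 1 lower, 515 and 13, 492 and 4, 488 and 4, and 791 and 24, in that order. For both agents against control (11 genes) the 3 corrections gave 4, 6 and 7, the groups alone 21 and removal of lactate replicates 1 and 4 gave 25. Over all genes these called 754 higher and 753 lower, 945 and 938, 1195 and 1237, 2661 and 2048, and 2893 and 2509, in that order. Against I-BET762 (0 genes) GC with length gave 2, without and with the block, the groups alone 6 and the removal of lactate replicates 1 and 4 gave 5. Over all genes these called 586 higher and 540 lower, 751 and 732, 1294 and 1241, and 1180 and 1100, in that order. Against lactate (0 genes) no filter, DESeq2 and removal of replicate 2 of control and of I-BET762 gave 1 each. Over all genes these called 36 higher and 161 lower, 19 and 71, and 11 and 49, in that order. Removal of lactate replicates 1 and 4 gave a median of 0.145 against lactate and 0.113 for the interaction. The cause was not tested.

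Leaving out 1 library at a time gave 5 to 28 genes for lactate, 0 to 4 for I-BET762 and 7 to 19 for both agents against control. It gave 0 to 2 against I-BET762, and 0 to 0 against lactate and for the interaction. Over all genes, lactate gave 1150 higher and 689 lower without control replicate 3, and 2660 and 2290 without lactate replicate 2. Against I-BET762, 1062 of all genes were called higher and 610 lower without lactate replicate 1. Without replicate 4 of both agents these were 207 and 78. The medians ranged over 0.008 to 0.412, -0.025 to 0.049, -0.024 to 0.058, -0.034 to 0.01, -0.286 to 0.006 and -0.397 to -0.001 in that order of comparisons. MRPL41 reversed under the 3 GC corrections, to -0.154, -0.276 and -0.306 for lactate and -0.282, -0.296 and -0.308 for both agents, none of them called, and MRPL51 for lactate to -0.397 (adjusted p = 0.0062 in edgeR) without lactate replicates 1 and 4. Of the alternatives for named genes, 1147 kept the side of the threshold. Among these, called genes kept their direction, and genes not called moved by less than their SE, some with a change of sign. A further 106 lost and 40 gained a call in the same direction, and 57 that were not called moved by more than their SE. In 7 the direction reversed for a gene called as reported or in the alternative.

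Replicate numbers were not taken as pairing the libraries, since the labels tie them to no shared source and 16 of 24 same-numbered pairs, not all, correlated above 0.1 (-0.26 to 0.421). Of the 24, 12 correlated best with their own number, and the pairs of replicate 3 ranged over 0.156 to 0.421, a hint from the data of structure by number. With a replicate block, 19 genes were called for lactate, 2 for I-BET762, 13 for both agents against control and 0 in the other comparisons. Over all genes the block gave 2249 higher and 1995 lower for lactate, and 205 and 1 for I-BET762. For both agents it gave 2116 and 1433 against control, and 631 and 342 against I-BET762. Counts of 4 to 184 limit the precision of MRPL12.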

Other observations

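Cytosolic ribosomal protein genes, which encode the ribosome of the cytosol, gave 30 higher and 0 lower of 73 tested with lactate (edgeR; median log2 fold change 0.63; 56 at an unadjusted p under 0.05), beside 13.6% of all genes called higher and 10.1% lower. With I-BET762 0 of 73 were called (10 at an unadjusted p under 0.05), and with both agents against control 10 were higher, beside 13.0% of all genes higher and 7.72% lower. Nuclear genes of the respiratory chain gave 13 higher and 1 lower of 74 with lactate (median 0.46) and 7 higher and 0 lower with both agents, beside the same shares of all genes. Both lists share the high values of lactate replicates 1 and 4.

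Exons of several genes of the family overlap another gene. On the same strand, 45.2% of the exon bases of MRPL53 are shared with CCDC142, 37.5% of those of MRPL38 with ENSG00000267426, 35.8% of those of MRPS28 with ENSG00000276418, 23.2% of those of MRPS24 with URGCP-MRPS24 and 7.33% of those of MRPL28 with PGAP6. Reads in such shared bases cannot be told apart under any strand setting. On the opposite strand, 32.7% of those of MRPL43 are shared with SEMA4G and 31.3% of those of MRPL51 with NCAPD2. As the strand setting of the counting is not given, it is not known whether reads of these opposite-strand partners were kept apart.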
